A study of Mus musculus with 4 samples.

Results

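The microRNAs miR-221, miR-222 and miR-193b have been reported in other cells to repress the messenger RNA of estrogen receptor alpha (ER-alpha), and their levels were examined in mouse embryos with and without that receptor. They were chosen by assay name, taking every assay called miR-221, miR-222 or miR-193b once the species prefix and arm were set aside, which gave 3 of 375 microRNA assays: mmu-miR-221, mmu-miR-222 and mmu-miR-193b. Total RNA came from whole C57BL/6 embryos (E18.5), of which 2 samples were labelled wild-type and 2 ER-alpha KO. All groups share the C57BL/6 strain and no treatment is named. The labels name no allele for the knockout, and neither the number of embryos behind a sample nor their litters. The p-values therefore measure only how far these 4 samples spread, which may be technical. The assays read small RNAs, so the messenger RNA of Esr1, the targeted gene, was not analysed here and the knockout labels could not be checked by it. Each TaqMan PCR well gives a threshold cycle (Ct): the earlier the cycle, the more of the RNA there was, with 1 cycle worth about 1 log2 unit.

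ER-alpha, encoded by Esr1, is a nuclear receptor that regulates transcription when bound by estrogen. A microRNA guides silencing proteins to messenger RNAs that pair with its seed, the bases from position 2 to 8, and lowers their translation and stability. The genes of miR-221 and miR-222 lie next to each other and are usually transcribed together; both microRNAs are known in endothelium and blood progenitors, where the receptor kinase Kit is a target, and for repression of the cell-cycle inhibitor p27. The gene of miR-193b lies beside a gene of miR-365, and this pair is known in brown fat and muscle. Ct values of whole embryos sum over all of these tissues, so fewer cells of a type and less of the microRNA per cell cannot be told apart.

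The mature sequences show which members share a seed and could therefore pair with the same sites. They are the 3p arms in RefSeq (GRCm38.p6), which the assay names without an arm are known to mean, although the files give no assay sequence. The seed is in capitals.
mmu-miR-221: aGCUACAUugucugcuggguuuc
mmu-miR-222: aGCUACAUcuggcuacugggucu
mmu-miR-193b: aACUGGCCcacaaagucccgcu
mmu-miR-193: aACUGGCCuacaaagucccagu
mmu-miR-365: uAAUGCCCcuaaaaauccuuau
Position by position from the 5′ end, mmu-miR-221 and mmu-miR-222 were identical at 11 of 23 bases, with the first difference at position 9, so the seed is shared and the rest largely is not. The seed occurs in 3 mouse mature microRNAs of the RefSeq table, the third being mmu-miR-1928, for which no assay was read. The seed of mmu-miR-193b belongs to a different group and is shared by 1 other, mmu-miR-193a-3p, the current name for the assay mmu-miR-193. These paralogs matched at 19 of 22 bases and differed by C9U, G20A and C21G (base of mmu-miR-193b, position from the 5′ end, base of mmu-miR-193).

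The hairpins show how the members sit in their precursors, with the mature 3p arm in capitals.
Mir221: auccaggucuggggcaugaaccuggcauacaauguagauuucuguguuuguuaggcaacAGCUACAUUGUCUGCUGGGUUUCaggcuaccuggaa
Mir222: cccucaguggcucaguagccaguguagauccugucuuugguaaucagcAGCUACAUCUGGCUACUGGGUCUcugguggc
Mir193b: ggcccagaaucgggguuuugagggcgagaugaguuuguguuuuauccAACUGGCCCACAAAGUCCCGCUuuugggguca
On GRCm38.p6, Mir221 (chrX:19146294-19146388) and Mir222 (chrX:19146893-19146971) lie on the minus strand with 504 bases between the hairpins, and no other RefSeq gene overlaps them. Mir193b (chr16:13449523-13449601) lies on the plus strand within the spans of the long noncoding RNA genes Gm32817 and Gm53058. In the same spans, 4238 bases further on, lies Mir365-1. The paralogous pair Mir193a and Mir365-2 lies on chromosome 11, and mature miR-365-3p has the same sequence from both of its genes, so the assay mmu-miR-365 cannot tell them apart.

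Wild-type replicate 1 differed from the other samples in its raw readings, and values without it are given beside the comparisons of genotypes. Its levels over the 229 tested microRNAs correlated with the other samples at Pearson r of 0.939 to 0.954, against 0.978 to 0.989 among the others (across assays, which are not independent). After subtraction of 0.273, a constant found in its microRNA wells, 89.9% of its amplified microRNA wells were no more than 0.1 cycle away from a whole number, against 21.0% to 26.5% in the other samples. All members were among these wells, at 0.039 cycles from a whole cycle for mmu-miR-221, -0.064 for mmu-miR-222 and -0.023 for mmu-miR-193b. The controls U87, Y1, snoRNA135 and snoRNA202 of this sample, after the same subtraction, also lay near a whole cycle (-0.045 to -0.01 cycles). Differences between single assays within this sample are therefore close to whole numbers. Between 254 and 290 microRNAs were detected per sample (Ct of 35 or lower). Tissue markers of a whole embryo were present: striated muscle (3 of 3 read assays), neural (3 of 3), liver (1 of 1), vascular (4 of 4) and blood-cell microRNAs (7 of 7) were detected in all samples. Of the adipose partners of miR-193b, mmu-miR-365 was detected in all samples, and mmu-miR-455 read 33.22 cycles in wild-type replicate 1 and 35.35 to 36.67 in the others.

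All members amplified in all samples and passed the detection filter. In the order replicate 1, replicate 2, the Ct of mmu-miR-193b was 27.25 and 24.72 for wild-type, then 24.80 and 24.66 for ER-alpha knockout. The Ct of mmu-miR-222 was 28.21 and 25.46 in wild-type, and 25.80 and 25.75 in knockout samples. The Ct of mmu-miR-221 was 31.31 and 29.68 in wild-type, and 30.16 and 31.01 in knockout samples. For mmu-miR-193b and mmu-miR-222 the late reading is that of wild-type replicate 1, while wild-type replicate 2 was close to both knockout samples. The median Ct of all tested assays was 29.23 and 27.36 in wild-type, and 28.19 and 27.82 in knockout samples. The panel median was thus also latest in wild-type replicate 1, so a late reading there is not particular to the members. For mmu-miR-221 the latest readings are 1 wild-type and 1 knockout sample. Among the 229 tested assays of a sample, ordered by level from the highest, mmu-miR-193b ranked 42 to 67, mmu-miR-222 ranked 63 to 76 and mmu-miR-221 ranked 169 to 184. This order was the same in each sample, but assay efficiencies are unknown, so it does not show that one microRNA has more molecules than another.

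**Figure D1:**
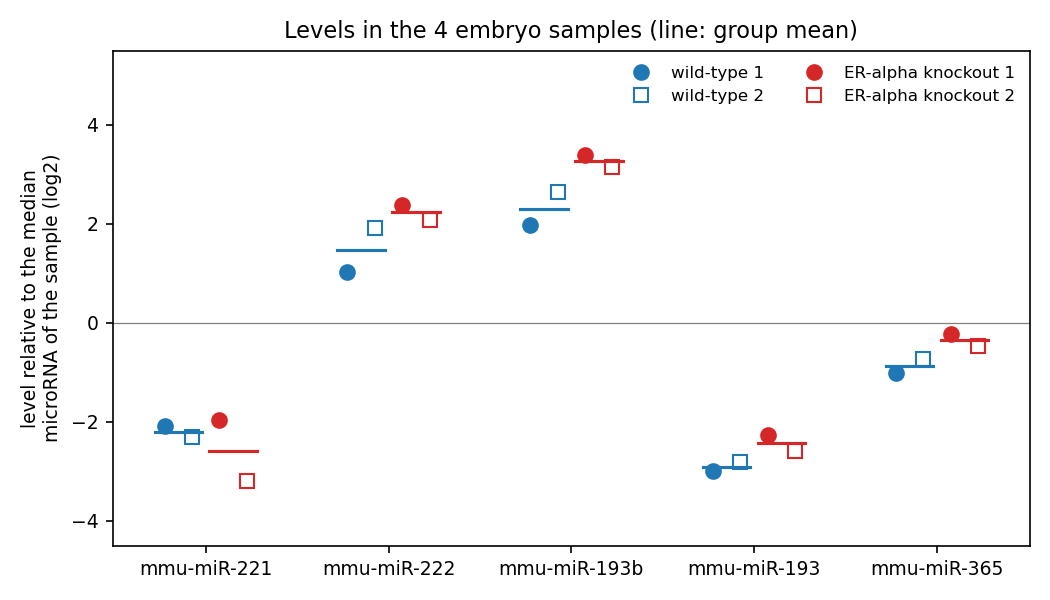
Level of each member, of the seed paralog mmu-miR-193 and of the cluster partner mmu-miR-365, as log2 units relative to the median tested microRNA of the sample (y axis); blue is wild-type, red is ER-alpha knockout, filled circles are replicate 1, open squares replicate 2, and lines are group means. For mmu-miR-222 and mmu-miR-193b both knockout samples lie above both wild-type samples, with wild-type replicate 1 lowest; for mmu-miR-221 the groups overlap.

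The comparison of genotypes asked whether these microRNAs differ between embryos with and without ER-alpha. With the median tested assay of each sample set to 0, mmu-miR-193b stood at 1.98 and 2.64 log2 units in wild-type and at 3.39 and 3.16 in knockout samples. The groups did not overlap, with means of 2.31 ± 0.46 and 3.27 ± 0.16 (SD, n = 2 each), or 1.95-fold higher in knockout. The level of mmu-miR-222 was 1.02 and 1.91 in wild-type and 2.39 and 2.08 in knockout samples. Its groups did not overlap either, with means of 1.47 ± 0.62 and 2.23 ± 0.22 (SD, n = 2 each), or 1.70-fold higher in knockout. The level of mmu-miR-221 was -2.08 and -2.31 in wild-type and -1.97 and -3.19 in knockout samples. Here the knockout samples lay on either side of both wild-type samples, with means of -2.20 ± 0.17 and -2.58 ± 0.86 (SD, n = 2 each), or 0.77-fold of wild-type.

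None of these differences passed the test. In limma over the 229 tested microRNAs, the log2 fold change (knockout minus wild-type) was 0.96 for mmu-miR-193b (95% confidence interval -0.29 to 2.21), 0.77 for mmu-miR-222 (-0.48 to 2.02) and -0.38 for mmu-miR-221 (-1.64 to 0.87). The limma standard error was 0.64 for each, and the Benjamini-Hochberg adjusted p was 0.939 for each. Over the whole panel 0 of 229 microRNAs (0.0%) passed an adjusted p of 0.05, and 10 (4.37%) had an unadjusted limma p under 0.05, with 0 of the 3 members among them. An exact permutation test of the level (two-sided) gave p = 0.333 for mmu-miR-193b and mmu-miR-222, which is the lowest value a design of 2 against 2 allows, and p = 1 for mmu-miR-221. Both knockout samples lay above both wild-type samples for 2 of 3 members, and for 33.2% of all tested microRNAs. Both lay below for 0 of 3 members, against 6.11% of the panel. Without wild-type replicate 1, both knockout samples lay above the other wild-type sample for mmu-miR-193b alone among the members and for 77 of 241 microRNAs, and below it for mmu-miR-221 alone and for 92 of 241.

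The size of the differences depended on wild-type replicate 1. Without that sample, with detection and centring redone on the other 3, the log2 fold change was 0.30 for mmu-miR-193b, -0.0043 for mmu-miR-222 and -0.60 for mmu-miR-221. With the assays and centring of all 4 samples kept, the values without it were 0.63, 0.33 and -0.27 in the same order. With scaling to the small-RNA controls they were 0.20, -0.11 and -0.71. So mmu-miR-193b kept a positive sign and mmu-miR-221 a negative one in these fits without the sample, and the sign of mmu-miR-222 depended on the centring. In the other direction, mmu-miR-221 took a positive sign (0.14) without ER-alpha knockout replicate 2, and mmu-miR-222 and mmu-miR-193b reached 1.32 and 1.41 without wild-type replicate 2. Leaving out ER-alpha knockout replicate 1 moved mmu-miR-221 to -1.0. A fit with 1 sample in a group assumes that the lone sample varies like the other group.

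**Figure D2:**
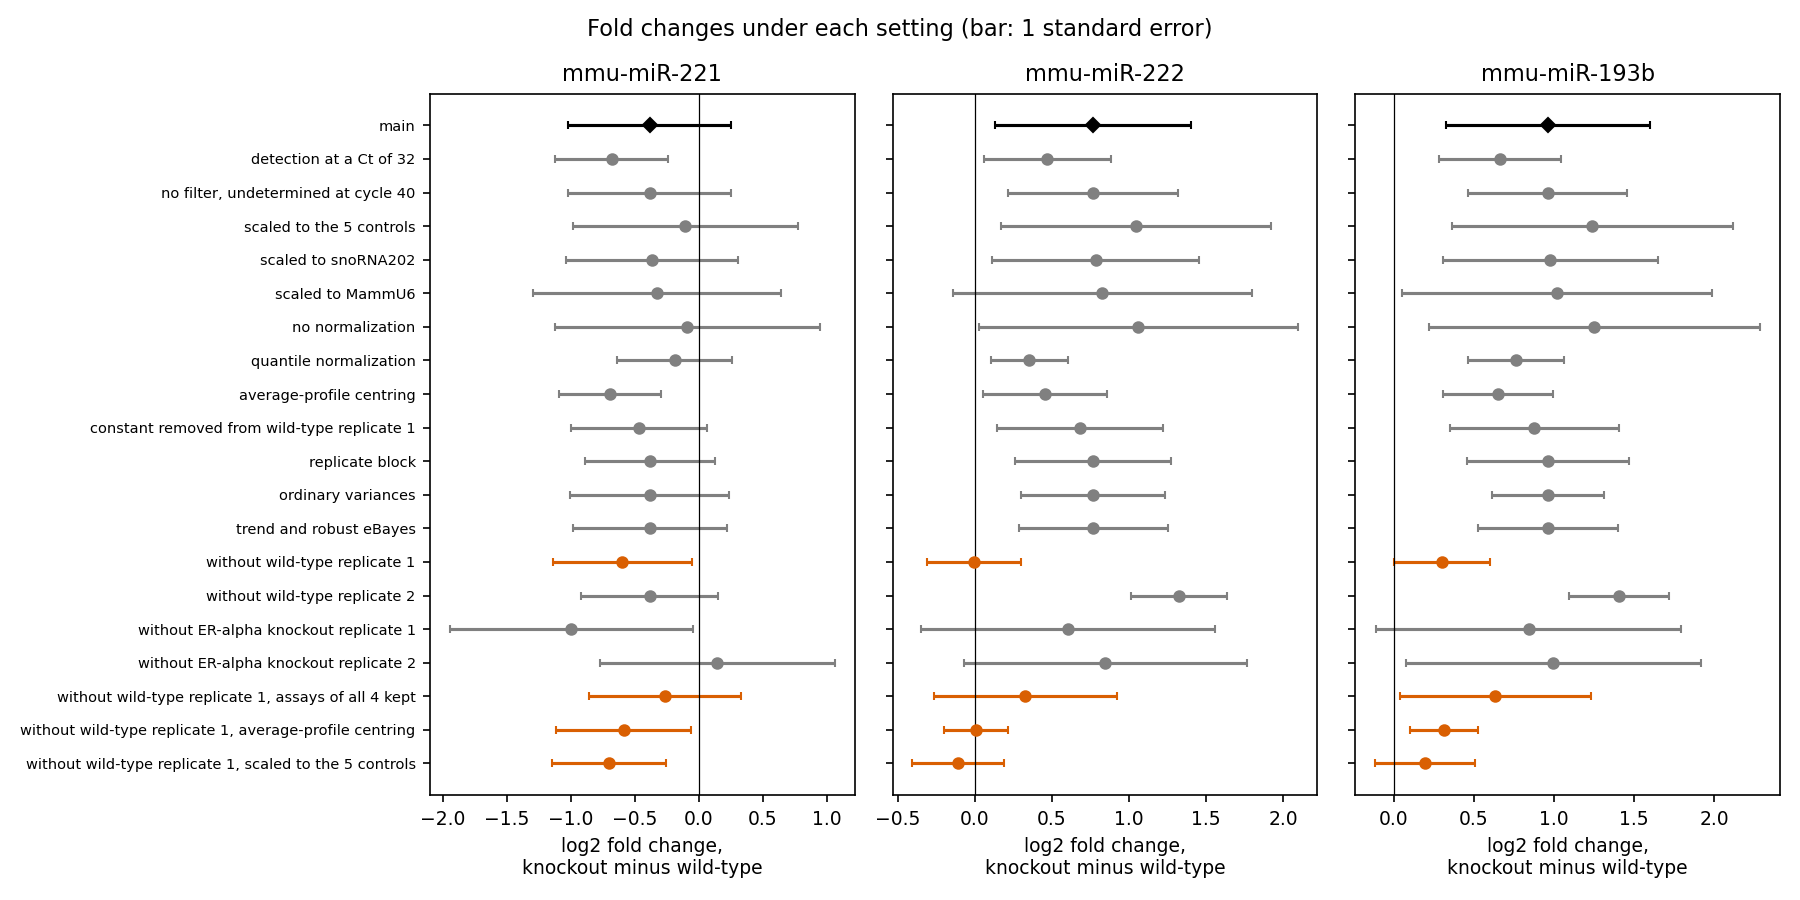
Log2 fold change of knockout minus wild-type (x axis) for each member under each setting (y axis), with bars of 1 standard error; the black diamond is the reported fit and orange marks fits without wild-type replicate 1. The reported values are -0.38, 0.77 and 0.96 for mmu-miR-221, mmu-miR-222 and mmu-miR-193b; in orange, mmu-miR-222 lies between -0.11 and 0.33.

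Early and late assays also differed across the panel. Across the 229 tested assays the log2 fold change had a median of 0.26. It was 0.43 for the 115 assays with a mean Ct at or before 28.1 and -0.0013 for the 114 later ones, and both knockout samples lay above both wild-type samples for 46.1% and 20.2% of them. The mean Ct was 25.4 for mmu-miR-193b and 26.3 for mmu-miR-222, in the early group, and 30.5 for mmu-miR-221, in the late group. Over assays, which are not independent and share their samples, fold change and mean Ct had r = -0.43 (n = 229), and r = -0.26 without wild-type replicate 1. The medians of the early and late assays without that sample were 0.06 and -0.17, and both knockout samples lay above wild-type replicate 2 for 42.6% and 21.9% of them. The part of this pattern in the members' values was not tested.

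**Figure D3:**
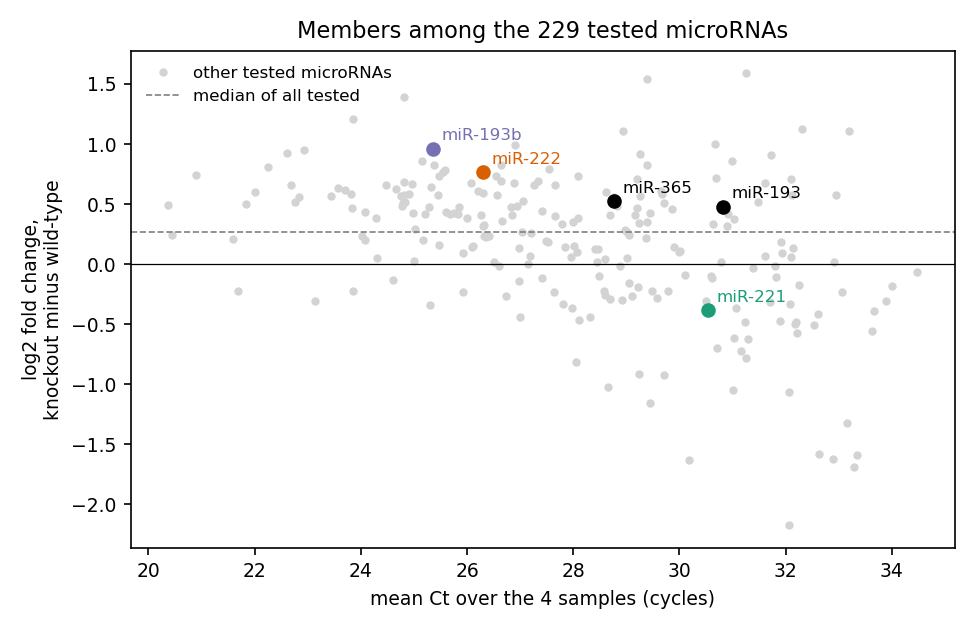
Log2 fold change of knockout minus wild-type (y axis) against the mean Ct over the 4 samples (x axis, in cycles) for the 229 tested microRNAs in grey, with the members in colour and mmu-miR-193 and mmu-miR-365 in black; the dashed line is the median of all. The members with an early Ct, mmu-miR-193b and mmu-miR-222, lie above the median, and mmu-miR-221 lies below it.

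Scaling to the 5 small-RNA controls (snoRNA135, snoRNA202, U87, Y1 and MammU6) kept the signs of the members' fold changes and widened the spread of the wild-type samples. The controls did not move together. U87 read 26.26 and 27.80 cycles in wild-type and 26.08 and 28.26 in knockout samples. For snoRNA202 the readings were 25.24 and 23.42, then 24.36 and 23.75. In wild-type replicate 1, U87 read earlier than in wild-type replicate 2 and the other controls read later. All controls but MammU6 share the near whole-cycle readings of that sample, so scaling to them does not remove this form. On that scale mmu-miR-193b stood at -2.65 and -0.56 in wild-type and -0.50 and -0.22 in knockout samples. The level of mmu-miR-222 was -3.61 and -1.29 in wild-type and -1.50 and -1.30 in knockout samples, so wild-type replicate 2 was slightly above both knockout samples and the groups overlapped. The level of mmu-miR-221 was -6.71 and -5.51 in wild-type and -5.86 and -6.56 in knockout samples. The control-scaled log2 fold changes of 1.24, 1.05 and -0.11 for mmu-miR-193b, mmu-miR-222 and mmu-miR-221 each had a limma standard error of 0.88.

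Differences between members within a sample are free of any offset common to all assays of that sample. They do not remove a shift that depends on Ct, and the mean Ct was 26.3 for mmu-miR-222 and 30.5 for mmu-miR-221. The part of such a shift in these differences was not tested. The level of mmu-miR-222 exceeded that of mmu-miR-221 by 3.10 and 4.22 log2 units in wild-type and by 4.36 and 5.26 in knockout samples. The groups did not overlap, although wild-type replicate 2 lay just under ER-alpha knockout replicate 1. The share of all assay pairs that separate in this way was not computed, so the separation cannot be called particular to this pair. The means were 3.66 ± 0.79 and 4.81 ± 0.64 (SD, n = 2 each), a change of 1.15 in knockout with an exact permutation p of 0.333 (two-sided, the smallest possible). Without wild-type replicate 1 the change was 0.59, with 1.71 without wild-type replicate 2 and 0.70 without ER-alpha knockout replicate 2. The absolute size of such a difference also holds the efficiencies of both assays, so only its change between samples can be read.

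The level of mmu-miR-193b exceeded the mean of the linked pair by 2.51 and 2.84 in wild-type and by 3.18 and 3.72 in knockout samples. The means were 2.68 ± 0.24 and 3.45 ± 0.38 (SD, n = 2 each), a change of 0.77 with the same exact permutation p of 0.333 and of 0.60 without wild-type replicate 1. Against mmu-miR-222 alone the change was 0.19 (0.96 and 0.73 in wild-type, then 1.0 and 1.08; 0.31 without wild-type replicate 1), and against mmu-miR-221 alone it was 1.35 (4.06 and 4.95, then 5.36 and 6.35; 0.90 without that sample). Over all samples the distance of mmu-miR-193b from mmu-miR-222, which differ in seed and chromosome, thus ran from 0.73 to 1.08, and that of mmu-miR-222 from mmu-miR-221, which share a seed and lie next to each other, from 3.10 to 5.26. The difference between these spreads was not tested.

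**Figure D4:**
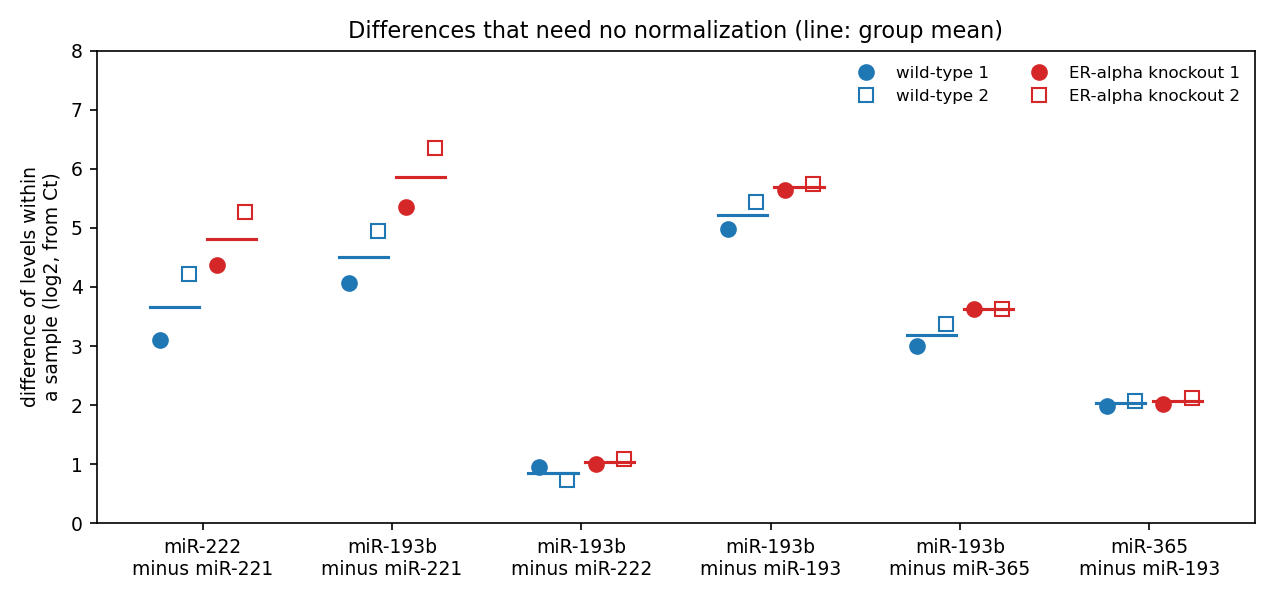
Difference in level between the named assays within each sample (y axis, log2 units, taken directly from Ct), with colours and symbols for samples and lines for group means. The differences that involve miR-221 run from 3.10 to 5.26 and from 4.06 to 6.35, while mmu-miR-365 minus mmu-miR-193 stays between 1.98 and 2.13. All differences shown are lowest in wild-type replicate 1, except mmu-miR-193b minus mmu-miR-222, which is lowest in wild-type replicate 2 (0.73).

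The seed paralog and the cluster partner of miR-193b had smaller differences of the same sign. The level of mmu-miR-193 was -3.0 and -2.81 in wild-type and -2.26 and -2.59 in knockout samples, a log2 fold change of 0.48. The level of mmu-miR-365 was -1.01 and -0.73 in wild-type and -0.23 and -0.46 in knockout samples, a log2 fold change of 0.52. Neither passed the test (limma adjusted p = 0.939 for both), and without wild-type replicate 1 both were at 0.05. Within samples, mmu-miR-193b exceeded mmu-miR-365 by 3.0 and 3.37 in wild-type and by 3.62 in each knockout sample, a change of 0.44 (0.25 without wild-type replicate 1). It exceeded mmu-miR-193 by 4.98 and 5.45 in wild-type and by 5.65 and 5.75 in knockout samples, a change of 0.49 (0.25 without that sample). In both cases the knockout samples, with the share over all assay pairs not computed, were above the wild-type samples. The exact permutation p was 0.333, the smallest possible. By contrast, mmu-miR-365 minus mmu-miR-193 was 1.98 and 2.07 in wild-type and 2.02 and 2.13 in knockout samples, a change of 0.05 with overlapping groups (exact permutation p = 0.667). The seed paralog and the cluster partner thus kept nearly the same distance in wild-type replicate 2 and the knockout samples (2.02 to 2.13). In wild-type replicate 1 both assays read near a whole cycle, so its value of 1.98 is resolved only to about a whole cycle.

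The assays with the profile most like a member were found by the root mean square difference of levels over the 4 samples, after the mean of each assay was taken off, among the 228 other tested microRNAs. For mmu-miR-193b they were mmu-miR-186 (0.081 log2 units), the blood-cell microRNA mmu-miR-155 (0.113) and mmu-let-7g (0.116), and mmu-miR-222 came at place 5 (0.129). For mmu-miR-222 they were mmu-miR-186 (0.073), mmu-let-7g (0.088) and mmu-miR-30e (0.095), and mmu-miR-193b came at place 11. For mmu-miR-221 they were rno-miR-381 (0.124), the blood-cell microRNA mmu-miR-142-5p (0.182) and mmu-miR-324-5p (0.186), while its linked neighbour mmu-miR-222 came at place 180 (0.767). The closest assays to mmu-miR-193b and mmu-miR-222 were lowest in wild-type replicate 1, with log2 fold changes of 0.73 to 0.91, and those closest to mmu-miR-221 were lowest in ER-alpha knockout replicate 2, with -0.23 to -0.70. Without wild-type replicate 1 the fold changes were 0.14 for mmu-miR-186, 0.08 for mmu-let-7g, -0.03 for mmu-miR-30e and 0.17 for mmu-miR-155, and -0.36 to -0.80 for the assays closest to mmu-miR-221. With 4 samples such likeness is a description only.

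Of 8 other microRNAs reported to repress ER-alpha messenger RNA, 6 were on the panel and 4 were detected in all samples, and 0 of these 4 passed the test (0.0% of the panel did). Their median log2 fold change was 0.04, and 1 of 4 lay above the panel median of 0.26. These were mmu-miR-20b at 0.60, mmu-miR-18a at 0.05 and mmu-miR-19b at -0.22, all of miR-17-related clusters, and the smooth-muscle microRNA mmu-miR-145 at 0.03. Their values without wild-type replicate 1 were 0.04, -0.39, -0.13 and -0.45 in the same order. No reading was obtained for mmu-miR-18b in any sample, and mmu-miR-302c, of a pluripotency cluster, amplified at cycle 29.45 in wild-type replicate 1 and was undetermined in the other 3. The reported targeting microRNAs miR-22 and miR-206 were not analysed here.

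Markers of cells in which miR-221 and miR-222 are known were read beside them. The 7 blood-cell microRNAs had a median level of -0.01 and 0.38 in wild-type and 0.71 and 0.34 in knockout samples, with a median log2 fold change of 0.63, and 6 of 7 lay above the panel median. Without wild-type replicate 1 that median was -0.19, and 2 of 7 were above 0. The 4 vascular microRNAs had a median level of 3.0 and 3.32 in wild-type and 3.62 and 3.40 in knockout samples, with a median log2 fold change of 0.20 (0.17 without that sample), and 1 of 4 lay above the panel median. One of these, mmu-miR-145, is also among the reported ER-alpha repressors. The median log2 fold change was 0.42 for the 3 muscle, -0.23 for the 3 neural and 0.78 for the 1 liver microRNA, and 0.17, -0.35 and 0.28 without wild-type replicate 1. The blood and vascular medians and the liver value (2.01) were lowest in wild-type replicate 1, as mmu-miR-222 and mmu-miR-193b were. Single markers differed: mmu-miR-126-5p and mmu-miR-145 were lowest there. But mmu-miR-126-3p (8.0 in wild-type replicate 1, 7.20 in wild-type replicate 2) and mmu-miR-143 (2.99 and 2.21) were not, nor was the blood-cell mmu-miR-142-5p. The muscle and neural medians were highest in wild-type replicate 1 (5.98 and -0.01). Among their single markers, mmu-miR-133b, mmu-miR-124 and mmu-miR-9 were highest there. Lowest there were the muscle microRNA mmu-miR-1 (1.96, against 2.43 to 2.8) and the neural mmu-miR-128a (-3.01, against -2.39 to -2.24). The muscle microRNA mmu-miR-133a was highest in ER-alpha knockout replicate 1 (8.23, against 7.97 in wild-type replicate 1). Of the marker microRNAs, 0 passed the test. The part of blood or vessel content in the members' values was not tested.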

How the data were processed

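The deposited values are threshold cycles (Ct), a score per well with a number of cycles as its unit, per the file headers; total RNA was isolated with TRIzol and amplified for 40 cycles on a 7900HT instrument, per the labels' protocols. How the authors set threshold and baseline is not given in the sources used here. The 39 wells of wild-type replicate 1 past cycle 40 were read as not amplified. MicroRNAs with a Ct of 35 or lower in all 4 samples (229 of 375) were tested. Levels are minus the Ct centred on their median in each sample (log2 scale). The U6 wells of a sample were averaged. PCR gives no read counts; the number of samples limits the precision.

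The genotype effect was fitted in limma 3.58.1 (R 4.3.3; lmFit and eBayes with genotype alone, two-sided tests, Benjamini-Hochberg over all tested assays), which was tested on simulated data. The simulated noise was independent between assays, and the planted effects were larger than the members' differences. The simulation therefore does not show how the fit handles differences of this size in these samples. In the fit to the 4 samples the variances were shrunk fully to a common value, which gives every assay 1 shared standard error. Within-sample differences were compared by exact permutation (scipy 1.17.1; Python 3.11.15, pandas 2.3.3; figures with matplotlib 3.10.9). Named microRNAs were the members, their seed and cluster partners, reported ER-alpha repressors, tissue markers and the 3 assays closest in profile to each member; an assay of the arm opposite to a listed one (rno-miR-20b-3p) was not counted, and both arms of miR-126 and miR-142 were listed. Members and lists were chosen with earlier results of these data known. Sequences are from RefSeq tables and matched for 5 of 5 assays printed. Alternatives were the scaling, centring, filter, variance model, replicate block and samples left out; combinations of leaving out wild-type replicate 1 with a centring were added after seeing the data.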

Additional observations from a re-analysis of the deposited data

How the results depend on the processing

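Among the 12 alternatives that kept all samples, the log2 fold change ranged from -0.70 to -0.09 for mmu-miR-221, 0.35 to 1.06 for mmu-miR-222 and 0.65 to 1.25 for mmu-miR-193b, with limma adjusted p from 0.776, 0.694 and 0.627 upwards, and 0 of 3 members passed the threshold in any. The smallest unadjusted p for mmu-miR-193b was 0.0277 (trend and robust settings, limma). Leaving out 1 sample gave -1.0 to 0.14 for mmu-miR-221 (positive without ER-alpha knockout replicate 2), -0.0043 to 1.32 for mmu-miR-222 (negative without wild-type replicate 1) and 0.30 to 1.41 for mmu-miR-193b. Without wild-type replicate 1 and scaled to the controls, mmu-miR-222 was at -0.11. The panel median, 0.26 as reported, moved to 0.54 with control scaling, 0.55 with no normalization, 0.05 with quantile normalization and -0.05 with average-profile centring. The change of mmu-miR-222 minus mmu-miR-221 ranged from 0.59 to 1.71 and that of mmu-miR-193b minus the pair from 0.50 to 1.04 with 1 sample left out.

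Same-numbered samples deviated together (r = 0.37 over 229 assays), but 2 pairs and no label of what a number marks do not make pairs. With the replicate number as a block, 1 microRNA of the panel passed and 0 members did (smallest adjusted p of a member 0.627 in limma; fold changes of -0.38, 0.77 and 0.96). In the fit without wild-type replicate 1 that kept the assays and centring of all 4 samples, 1 microRNA passed, again no member.

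The partners, reported ER-alpha repressors and closest assays made 13 other named assays, and tissue markers outside these lists were not counted. Of their 206 values, 185 kept their sign, 21 changed it and 0 crossed the threshold. Causes were not tested. Detection at a Ct of 32 gave -0.25 for mmu-miR-18a and -0.27 for mmu-miR-145. Quantile normalization gave -0.30 for mmu-miR-18a, -0.36 for mmu-miR-145 and 0.0840 for mmu-miR-142-5p. Average-profile centring gave -0.26 for mmu-miR-18a and -0.28 for mmu-miR-145, and taking the constant off wild-type replicate 1 gave -0.0349 and -0.0570. Control scaling gave 0.0549 for mmu-miR-19b and 0.0528 for rno-miR-381, and no normalization gave 0.0678 and 0.0657. With 1 sample left out, ranges that crossed 0 were -0.39 to 0.27 for mmu-miR-18a, -0.45 to 0.29 for mmu-miR-145, -1.38 to 0.19 for mmu-miR-142-5p, -0.94 to 0.41 for rno-miR-381 and -0.0312 to 1.53 for mmu-miR-30e. PCR readings carry no depth; the precision rests on 2 samples a group.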
